A study of Mus musculus with 5 samples.

Results

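The genes described here are 10 targets of the unfolded protein response of the endoplasmic reticulum (ER): Hspa5, Hsp90b1, Dnajb9, Dnajc3, Sdf2l1, Xbp1, Herpud1, Edem1, Pdia4 and Creld2. They were taken by symbol from the 22869 gene symbols of a table of read counts, using for each symbol the row with the highest mean count; all 10 were present, and all 10 had enough reads to be tested. RNA was sequenced from intervillus cells, the epithelium between the villi, captured by laser from the upper (proximal) jejunum of mice on postnatal day 0. The 3 control libraries (replicates 1, 2 and 3) came from littermates of genotype Dnmt1 L/+, with 1 floxed Dnmt1 allele, and were cut from Ki67-positive areas. The 2 mutant libraries (replicates 4 and 6) came from mice of genotype Dnmt1 L/L; VillinCre, with both alleles floxed and a Cre driven in gut epithelium, and were cut from Ki67-negative areas. Every library therefore carried at least 1 floxed allele, and captured cells outside the epithelium would keep Dnmt1 in the mutants.

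The unfolded protein response adjusts the folding capacity of the ER to the load of proteins that enter it. Misfolded proteins draw the chaperone BiP, the product of Hspa5, away from stress sensors in the ER membrane. The sensor IRE1 then splices the mRNA of Xbp1, ATF6 is cut in the Golgi to release a transcription factor, and the kinase PERK lowers translation while favouring the factor ATF4. In the gut the response is best known from secretory cells, goblet and Paneth cells above all, which depend on Xbp1.

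Depth was 10530200 to 13356901 reads in a control library, 8730268 in mutant 4 and 10260760 in mutant 6, counted with 1 row per gene. Levels are given below as CPM (counts scaled to a common library total), here scaled to library size after TMM normalization, with mean ± SD over 3 controls and 2 mutants. The targeted gene Dnmt1 had 115 ± 17.8 CPM in the control and 39.1 ± 1.93 CPM in the mutant libraries (edgeR adjusted p = 3.74e-05). The 4 Y-linked genes Ddx3y, Eif2s3y, Kdm5d and Uty together had 2710 to 3160 counts in each control but 3 and 4 in the mutants. Genotype, the choice of areas by Ki67 and the presence of Y-linked transcripts thus go together and cannot be told apart in what follows. Nothing in the labels ties each library to its own mouse, so the p-values describe only how these libraries vary, and that variation may be technical. Epithelial markers were high in all libraries (12 markers, summed 6179 to 6562 CPM in controls, 5903 and 6025 CPM in mutants). Of these, 2 were called higher (Krt18 and Krt20, 16.7%) and 1 lower (Cdx2, 8.33%) at an edgeR adjusted p under 0.05. Over all genes 6.11% were called higher and 4.17% lower. Both mutants lay above all controls in 2 epithelial markers and below them in 6, against 21.7% and 21.8% of all genes. The 13 mesenchyme and smooth muscle markers were higher in both mutants than in every control, at 1270 to 1380 CPM summed in controls and 1962 and 2110 CPM in mutants. Over all genes tested, 21.7% were higher in both mutants than in every control.

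The promoter sequences of the members were searched for short sites known from this response. The windows reach from 250 bases before to 50 bases after each start (RefSeq, build GRCm38.p6, in the direction of the gene), and all 10 members had 1 window. The ER stress element, the site that ATF6 and XBP1 are known to use with the factor NF-Y, was searched as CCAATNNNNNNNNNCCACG on both strands. It occurred in the windows of 37 of 27025 genes (0.137%), and 4 of the 10 members, namely Hspa5, Hsp90b1, Dnajc3 and Creld2, were among them. Herpud1 held the shorter ER stress element II, ATTGGNCCACG, found in 12 genes of the table (0.0444%). It also held the amino acid response core TTGCATCA, a site of ATF4 (1.03% of genes), and Hspa5 held the core TGACGTG of the unfolded protein response element (2.22% of genes). These searches do not overlap in what they match in the members. The members are known targets of this response, so the matches are a description and no test. The stretches below hold these matches, with the fixed bases of each match in capitals, and end upstream of the start. They lie at chr2:34771923-34772053 (plus strand), chr10:86705523-86705666 (minus strand), chr14:118937817-118937855 (plus strand), chr15:88819510-88819548 (plus strand) and chr8:94386307-94386397 (plus strand).
Hspa5: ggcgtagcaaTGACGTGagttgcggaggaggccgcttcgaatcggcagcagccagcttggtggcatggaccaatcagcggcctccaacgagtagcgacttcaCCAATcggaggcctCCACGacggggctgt
Hsp90b1: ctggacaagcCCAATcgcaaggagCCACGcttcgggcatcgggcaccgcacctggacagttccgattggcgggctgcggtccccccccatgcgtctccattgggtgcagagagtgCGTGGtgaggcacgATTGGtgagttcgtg
Dnajc3: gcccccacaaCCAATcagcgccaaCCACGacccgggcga
Creld2: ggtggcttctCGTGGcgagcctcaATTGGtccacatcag
Herpud1: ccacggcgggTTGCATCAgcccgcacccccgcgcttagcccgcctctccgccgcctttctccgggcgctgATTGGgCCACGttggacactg

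Hsp90b1 held the ER stress element once on each strand, and its forward match began 212 bases and its reverse match 107 bases before the start. In Creld2 the match was on the reverse strand and began 126 bases before the start. Dnajb9, one of the genes called higher below, held no exact match to any of these letters in its window. Neither did Sdf2l1, Xbp1, Edem1 and Pdia4. For Dnajb9 the last 120 bases before the start (chr12:44210069-44210188 (minus strand)) are shown in lower case, since no base of a match falls in them.
Dnajb9: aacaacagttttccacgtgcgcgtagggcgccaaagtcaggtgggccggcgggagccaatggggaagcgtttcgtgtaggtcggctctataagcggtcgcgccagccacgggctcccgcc

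Of the 10 members, 2 rose in the mutants and 0 fell: Dnajb9, at 1.82 times its control level, and Creld2, at 1.68 times. Across all 14572 genes tested, 6.11% were called higher and 4.17% lower (edgeR adjusted p under 0.05). The other 8 did not pass. Before adjustment 4 members had a p under 0.05, namely these 2 with Hspa5 and Sdf2l1. Over all 14572 genes tested, 3732 had one. DESeq2, limma-voom and the edgeR exact test each called 3 members higher, adding Hspa5, and 0 lower. These tests called 7.14%, 6.39% and 8.21% of all genes higher. All 10 log2 fold changes were above 0, from 0.04 to 0.86, with a median of 0.23 where the median of all genes tested was -0.01. The mutants were both higher than every control in 4 members and both lower in 0, against 21.7% and 21.8% of all genes. Mesenchymal markers moved the same way in the same libraries, and their part in these values was not tested. In captured tissue, a difference in the number of cells of a type and one in the RNA per cell cannot be told apart.

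**Figure D1:**
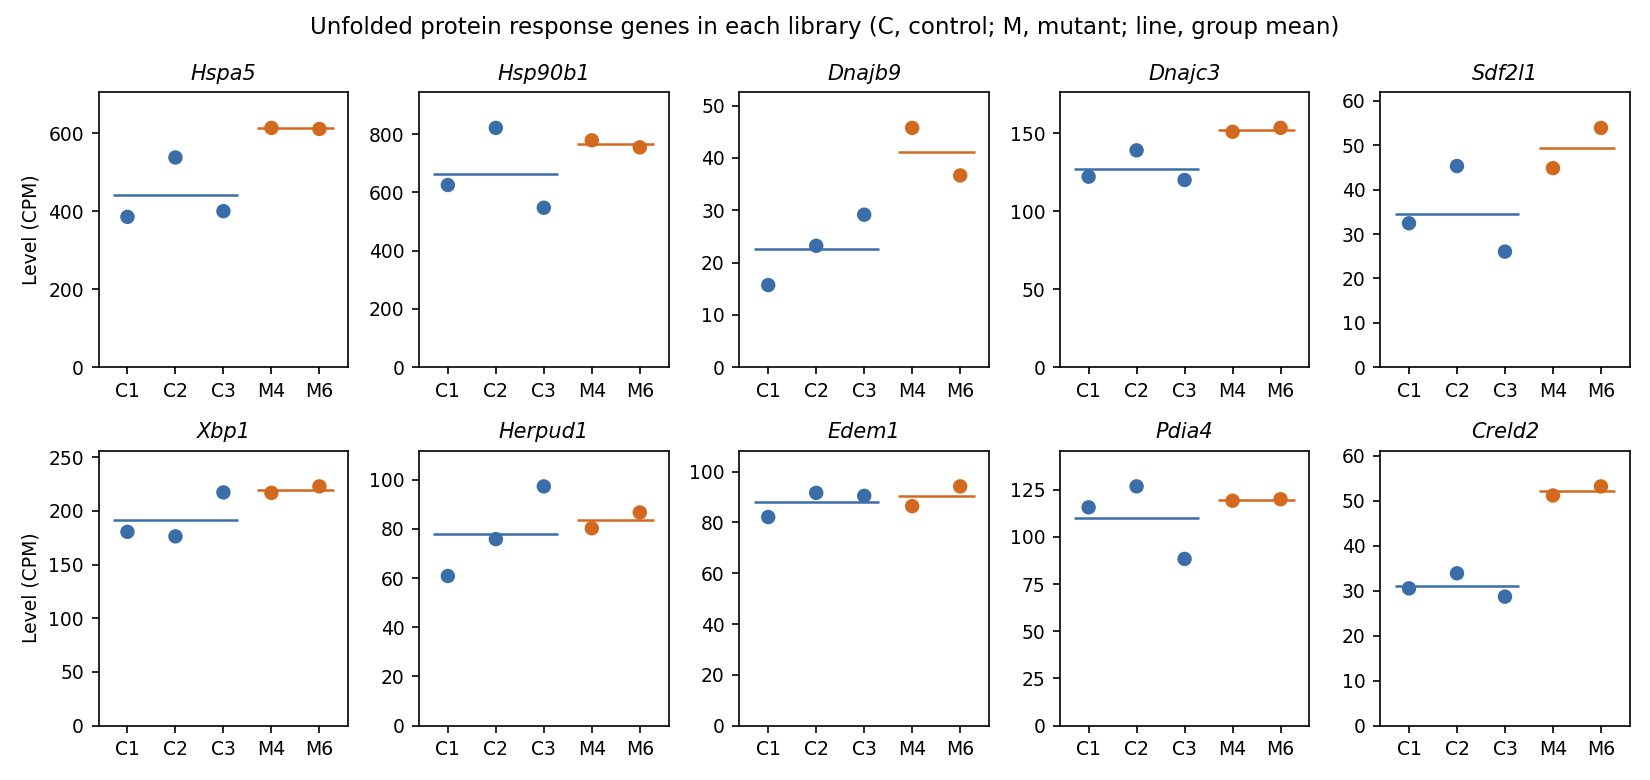
Level of each unfolded protein response gene in CPM (vertical axis, from 0, own scale per gene) in controls 1, 2 and 3 (C, blue) and mutants 4 and 6 (M, orange), with lines at the group means. In Hspa5, Dnajb9, Dnajc3 and Creld2 both orange points lie above all blue ones, while in the other 6 genes the groups overlap.

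Creld2, a cysteine-rich ER protein induced by ER stress, gave the steadiest difference. Its level was 30.5, 33.9 and 28.7 CPM in controls 1, 2 and 3 and 51.1 and 53.2 CPM in mutants 4 and 6. The controls lay close together and well below both mutants. The log2 fold change was 0.75 ± 0.15 (SE; 95% interval 0.44 to 1.06; edgeR adjusted p = 0.00524). On the deposited FPKM, which scale reads to the length of the transcript as well, controls 1, 2 and 3 had 21.2, 22.1 and 20.6 and the mutants had 35.4 and 43.4, and Creld2 passed there too (limma adjusted p = 0.0162 to 0.0233). Without mutant 6, the library with the higher level, the adjusted p was 0.0561.

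Dnajb9 encodes ERdj4, a J-domain partner of BiP that also keeps IRE1 inactive. Its level was 15.7, 23.2 and 29.1 CPM in the controls and 45.7 and 36.6 CPM in the mutants. The groups did not overlap, but the controls spread over a wider range than the gap from control 3 to mutant 6, and control 1 was lowest. The log2 fold change was 0.86 ± 0.22 (SE; 95% interval 0.39 to 1.34; edgeR adjusted p = 0.0239). Without control 1 the adjusted p was 0.0836 and without mutant 4 it was 0.197. On the deposited FPKM the rise also missed the threshold, at adjusted p-values of 0.177 to 0.187 (limma).

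Hspa5 encodes BiP, the main Hsp70 chaperone of the ER and the usual gauge of the response. Its level was 386, 538 and 401 CPM in the controls and 614 and 612 CPM in the mutants. Both mutants lay above all controls, of which control 2 came nearest. The log2 fold change of 0.47 ± 0.15 (SE; 95% interval 0.14 to 0.81) missed the threshold (edgeR adjusted p = 0.0691), and before adjustment its interval ran from 1.10 to 1.75 times the control level. Without control 2 it passed, at 0.66 (adjusted p = 0.00625), and it also passed with DESeq2 (adjusted p = 0.0291). It did not pass without control 1 (0.38, edgeR adjusted p = 0.233) or without control 3 (0.41, edgeR adjusted p = 0.128). On the deposited FPKM it missed the threshold too (limma adjusted p = 0.254 to 0.261). The log2 fold change stayed at 0.47 without mutant 4 and without mutant 6. The table has 2 rows for Hspa5 with the same counts in every library.

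Hsp90b1 encodes GRP94, the Hsp90 chaperone of the ER, and had more reads than any other member. Its level was 625, 821 and 547 CPM in the controls and 778 and 754 CPM in the mutants. The mutants fell within the range of the controls, since control 2 was the highest library of all. The log2 fold change was 0.21 (95% interval -0.15 to 0.56; edgeR adjusted p = 0.458). In the annotation GENCODE vM21, 15.7% of its exonic bases are shared with other genes, one of them on the opposite strand, and the sources used here do not say whether the counting used strand.

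The ratio of these large chaperones did not overlap between the groups, although neither gene passed the test alone. As a share of the Hsp90b1 reads, Hspa5 reads were 61.8%, 65.6% and 73.2% in controls 1 to 3, against 78.9% and 81.1% in mutants 4 and 6. This ratio is taken within each library and does not depend on the scaling between libraries. For Creld2 the share of the Hsp90b1 reads was 4.88%, 4.12% and 5.24% in the controls, against 6.57% and 7.05% in the mutants, again without overlap. For Dnajb9 it was 2.51%, 2.83% and 5.33% in the controls, against 5.88% and 4.86% in the mutants, so control 3 lay between the mutants. With 3 libraries against 2 no exact permutation test can pass the threshold, and these ratios were not tested. The pairs were picked from the members, and how often other gene pairs separate the groups was not computed.

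The co-chaperones Dnajc3 and Sdf2l1 differed in how far the controls spread. Dnajc3 encodes P58IPK, a BiP partner and inhibitor of PERK. It was 122, 139 and 120 CPM in the controls and 151 and 153 CPM in the mutants, which lay above all controls by a small margin (log2 fold change 0.26, 95% interval -0.01 to 0.54; edgeR adjusted p = 0.217). Sdf2l1, an ER protein that works with BiP and J-domain proteins, was 32.4, 45.3 and 26.1 CPM in the controls and 44.9 and 53.9 CPM in the mutants. Control 2 lay above mutant 4, and the log2 fold change of 0.51 (95% interval 0.08 to 0.95) did not pass (edgeR adjusted p = 0.13). Without control 2 it did (0.77; adjusted p = 0.0142).

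Pdia4, a disulfide isomerase that forms and rearranges disulfide bonds in new proteins, was 116, 127 and 88.4 CPM in the controls and 119 and 120 CPM in the mutants. The mutants lay between the controls, and the log2 fold change was 0.12 (95% interval -0.21 to 0.45; edgeR adjusted p = 0.678).

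Xbp1, the transcription factor of the IRE1 branch, was 180, 176 and 217 CPM in the controls and 217 and 223 CPM in the mutants. Control 3 lay between the mutants, and the log2 fold change was 0.20 (95% interval -0.09 to 0.49; edgeR adjusted p = 0.375). The table holds 1 row for Xbp1, so spliced and unspliced forms were not separated. On the deposited FPKM both mutants (114 and 107) lay above all controls (91.8 to 104).

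Herpud1 and Edem1 serve the degradation of misfolded ER proteins. Herpud1, a membrane protein of the degradation complex, was 60.8, 75.8 and 97.2 CPM in the controls and 80.2 and 86.7 CPM in the mutants. Its mutants lay inside the control range (log2 fold change 0.10, 95% interval -0.27 to 0.47; edgeR adjusted p = 0.763). Edem1, which marks misfolded glycoproteins for disposal, was 82.1, 91.7 and 90.5 CPM in the controls and 86.4 and 94.2 CPM in the mutants. It had the lowest spread over controls of the 10 (coefficient of variation 5.89%) and a log2 fold change of 0.04 (95% interval -0.24 to 0.31; edgeR adjusted p = 0.891).

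**Figure D2:**
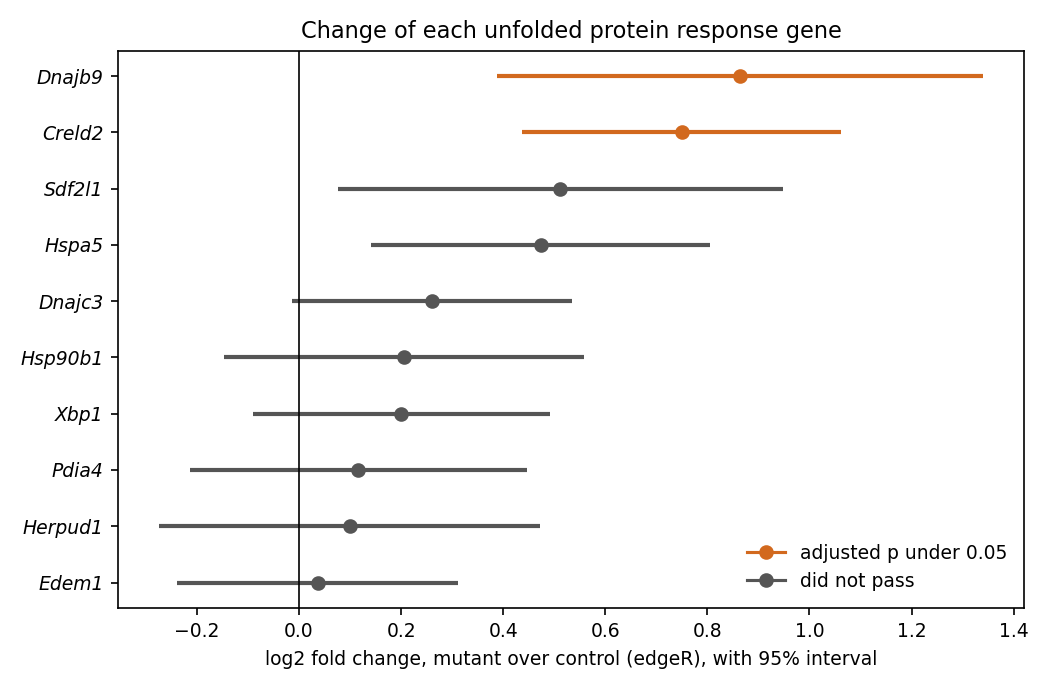
Log2 fold change of each member, mutant over control, from edgeR (horizontal axis) with its 95% interval, in order of size. Dnajb9 and Creld2 (orange) passed at an adjusted p under 0.05. The intervals of Hspa5 and Sdf2l1 lie above 0 before adjustment, and those of the other 6 span 0.

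The controls did not vary as one block across the members. Control 2 held the highest control level of Hspa5, Hsp90b1, Dnajc3, Sdf2l1, Edem1, Pdia4 and Creld2. Control 3 held the highest of Dnajb9, Xbp1 and Herpud1, and at the same time the lowest of Hsp90b1, Dnajc3, Sdf2l1, Pdia4 and Creld2. Summed over the members, the level was 1651, 2071 and 1644 CPM in the controls and 2188 and 2186 CPM in the mutants. The mutants were nearly equal and above control 2, the nearest control. Hspa5 and Hsp90b1 made up 57.6% to 65.6% of that sum in every library, so the sum follows them.

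Per transcript length, the members spanned more than an order of magnitude and kept most of their order. On the deposited FPKM, Hsp90b1 (222 ± 58.4 in controls, 251 ± 5.79 in mutants) and Hspa5 (161 ± 33.3 and 218 ± 8.83) were highest. Their control ranges overlapped, though Hsp90b1 was the higher in each of the 3 controls. Xbp1 followed at 98.3 ± 6.21 and 111 ± 4.65 FPKM, apart from its neighbours in both groups. In controls Hspa5 was above 98.5% of the genes tested, Xbp1 above 97.0% and Dnajb9, the lowest, above 62.8%. Pdia4, Herpud1, Sdf2l1, Dnajc3 and Creld2 lay between 21.3 and 43.7 FPKM in the mean of the controls, and each overlapped its neighbour in that order. Creld2 stood eighth in the controls (21.3 ± 0.775) and sixth in the mutants (39.4 ± 5.66), where its range overlapped those of Sdf2l1 and Herpud1. Edem1 (13.9 ± 0.675) was above Dnajb9 (10.6 ± 2.43) in all 3 controls, while in the mutants the ranges of the pair overlapped.

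**Figure D3:**
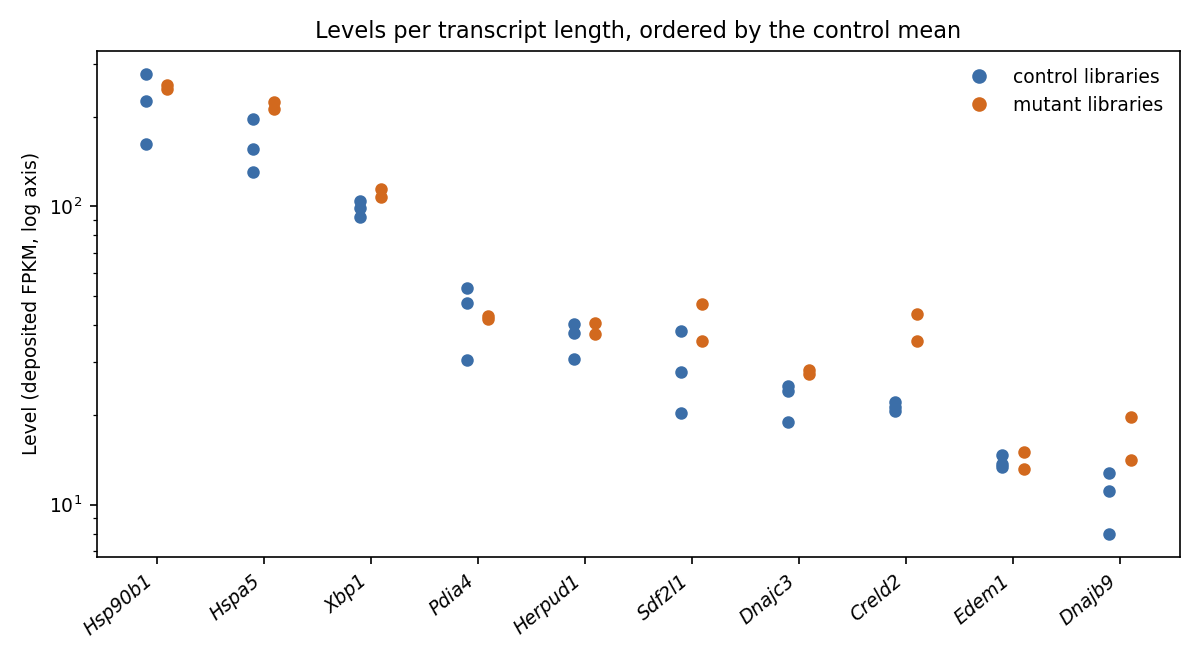
Deposited FPKM of each member (vertical log axis) in every control (blue) and mutant (orange) library, in order of the control mean. Hsp90b1, Hspa5 and Xbp1 stand above the rest in both groups. Hspa5, Xbp1, Dnajc3, Creld2 and Dnajb9 have both mutants above all controls.

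The genes whose pattern over the 5 libraries was nearest to that of Hspa5 were not members. Among 5444 other genes whose log2 CPM averaged 5 or more, the smallest root mean square differences in centred log2 CPM were those of Mpp1 (0.045), Rfk (0.0473), 1110003E01Rik (0.0474), Atp6v1d (0.0478) and Mea1 (0.0533). Mpp1 encodes a membrane scaffold protein, Rfk riboflavin kinase and Atp6v1d a subunit of the proton pump of lysosomes. Dnajc3 came closest of the members, at 0.147 (rank 250 of 5444), and Herpud1 was farthest, at 0.32 (rank 2409). Hsp90b1, Sdf2l1 and Creld2 stood at ranks 282, 351 and 392, and Pdia4, Edem1 and Xbp1 at 998, 1500 and 1659. Dnajb9 was below the level needed for this ranking.

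Upstream of the members, 14 sensors and transcription factors of the response were tested. Atf4 rose and Mbtps2 fell, each 7.14% of the list, with a median log2 fold change of 0.02. The shares over all genes tested, for this list and those below, were 6.11% higher and 4.17% lower. Atf4, the factor favoured by PERK, was 115, 129 and 123 CPM in the controls and 166 and 179 CPM in the mutants (log2 fold change 0.49 ± 0.13; edgeR adjusted p = 0.0229). Mbtps2, the site-2 protease that releases ATF6, was 38.5, 36.6 and 37.9 CPM in the controls and 26.3 and 25.1 CPM in the mutants (-0.55 ± 0.15; edgeR adjusted p = 0.0327). In neither gene did the groups overlap, yet both calls were lost without control 1, without mutant 4 or without mutant 6, and that of Mbtps2 also without control 3.

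The sensors themselves did not pass. Ern1, which encodes the common form of IRE1, was 8.97 ± 3.27 and 8.79 ± 4.46 CPM in controls and mutants (edgeR adjusted p = 0.967). Ern2, the form of IRE1 found in gut epithelium and goblet cells, was 18.3 ± 6.50 and 10.6 ± 1.01 CPM (0.103), with control 2 (10.9) between the mutants, and it passed as lower without control 2. Eif2ak3, which encodes PERK, was 19.6 ± 3.02 and 25.2 ± 2.95 CPM (edgeR adjusted p = 0.248), and both mutants lay above all controls. Atf6 was 73.7 ± 8.59 and 82.8 ± 3.22 CPM (edgeR adjusted p = 0.474). Atf6b (log2 fold change 0.03) and the site-1 protease gene Mbtps1 (-0.07) did not pass either.

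Downstream of PERK, Ddit3, which encodes CHOP, had 11.4 ± 1.31 CPM in controls against 17.7 ± 0.602 CPM in mutants (edgeR adjusted p = 0.0612). Ppp1r15a, which encodes the phosphatase subunit GADD34 that restores translation, was 4.09 ± 0.975 and 7.23 ± 1.28 CPM (edgeR adjusted p = 0.117). In both genes the mutants lay above all controls. Of the membrane-bound factors related to ATF6, Creb3l3 was by far the most abundant in reads (471 ± 41.3 and 474 ± 115 CPM; edgeR adjusted p = 0.98). Creb3l1 (log2 fold change -0.08), Creb3l2 (0.39) and Creb3l4 (-0.65) did not pass. Ddit3 passed as higher with upper-quartile normalization, with the edgeR exact test and without control 2. Creb3l2 passed as higher without control 3.

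Targets of ATF4 and CHOP, known to answer amino acid shortage as well as ER stress, had larger fold changes. Of 18 tested, 9 rose (50.0%) and 0 fell, with a median log2 fold change of 1.00. Chac1, which breaks down glutathione, had counts of 2, 3 and 1 in controls 1 to 3, against 138 and 114 in mutants 4 and 6 (log2 fold change 6.34 ± 0.47; edgeR adjusted p = 1.65e-06). Trib3, a pseudokinase, rose by 4.33 ± 0.37 log2 units, the cystine transporter gene Slc7a11 by 3.06 ± 0.29 and Atf3 by 2.24 ± 0.35. The difference between this list and the members was not tested.

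Among 29 other chaperones and folding enzymes of the ER, 3 rose (10.3%) and 1 fell (3.45%), with a median of 0.16. Fkbp11, a prolyl isomerase of secretory cells, was 8.97, 12.4 and 7.53 CPM in the controls and 16.3 and 18.6 CPM in the mutants (log2 fold change 0.85 ± 0.24; edgeR adjusted p = 0.037). Dnajb11, a J-domain partner of BiP, was 118, 154 and 136 CPM in the controls and 182 and 206 CPM in the mutants (0.51 ± 0.14; edgeR adjusted p = 0.034). Ero1l, the oxidase that recharges disulfide isomerases, rose by 0.50 ± 0.14 (edgeR adjusted p = 0.0351), and Txndc5, a disulfide isomerase, fell by 0.46 on the log2 scale (edgeR adjusted p = 0.0418). Without control 1, mutant 4 or mutant 6, 0 members of this list rose and 0 fell, while 6 rose without control 2 and 5 with DESeq2.

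The machinery of ER-associated degradation held 22 tested genes, of which 1 rose (4.55%) and 0 fell, with a median of 0.07. The gene was Os9, a lectin that delivers misfolded glycoproteins, at 64.1, 69.6 and 64.6 CPM in the controls and 107 and 95.1 CPM in the mutants (log2 fold change 0.61 ± 0.13; edgeR adjusted p = 0.00813). Its rise was lost without mutant 4, and without control 2 the list had 2 rises, of Os9 and Edem2. Sel1l, the scaffold of the degradation complex and the most abundant of the list by reads, was 193 ± 3.46 and 203 ± 7.29 CPM (edgeR adjusted p = 0.756). The symbols Vimp and Fam8a1 of this list were not matched.

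Of 31 genes of translocation into the ER and transport out of it, 3 rose (9.68%) and 0 fell, with a median of 0.23. Their log2 fold changes were above 0 in 28. Over all 14572 genes tested, 6.11% were called higher, and 7174 genes had a log2 fold change above 0. Kdelr3, a receptor that returns escaped chaperones to the ER, was 12.0, 13.1 and 17.9 CPM in the controls and 29.6 and 27.9 CPM in the mutants (log2 fold change 1.01 ± 0.20; edgeR adjusted p = 0.00624). Sec11c, a catalytic subunit of the signal peptidase, rose by 0.84 ± 0.20 (edgeR adjusted p = 0.0153). Lman1, a cargo receptor for glycoproteins, rose by 0.51 ± 0.14 (edgeR adjusted p = 0.0305). Only Kdelr3 passed without control 1 or without mutant 6, 0 passed without mutant 4, and 6 passed without control 2. Cells that secrete collagen use the same machinery, and 8 of the 13 mesenchymal markers (61.5%) rose in these libraries. Among them were Col1a1, Col1a2 and Col3a1, which were named after their values were seen. The part of mesenchymal cells was not tested.

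Chaperones of the cytosol and mitochondria were tested as a list of their own. Of 14 tested, 0 rose and 0 fell with edgeR and 0 passed with DESeq2, with a median of 0.10. An unadjusted p under 0.05 was found for 4 of them with edgeR, and for 3732 of all 14572 genes tested. With no filter on low counts 1 fell (Hspd1), and without control 3 another 1 did (Hsph1), both named after their values were seen. Hsp90ab1, the cytosolic relative of Hsp90b1, had a mean of 997 ± 35.9 CPM in controls against 852 ± 39.4 CPM in mutants (edgeR adjusted p = 0.287), with both mutants below all controls. Hspa9, the mitochondrial relative of Hspa5, was 320 ± 31.5 and 355 ± 36.8 CPM (edgeR adjusted p = 0.528). Hsp90b1 and Hsp90ab1 thus lay on opposite sides of 0 (0.21 and -0.23), and the difference between them was not tested.

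**Figure D4:**
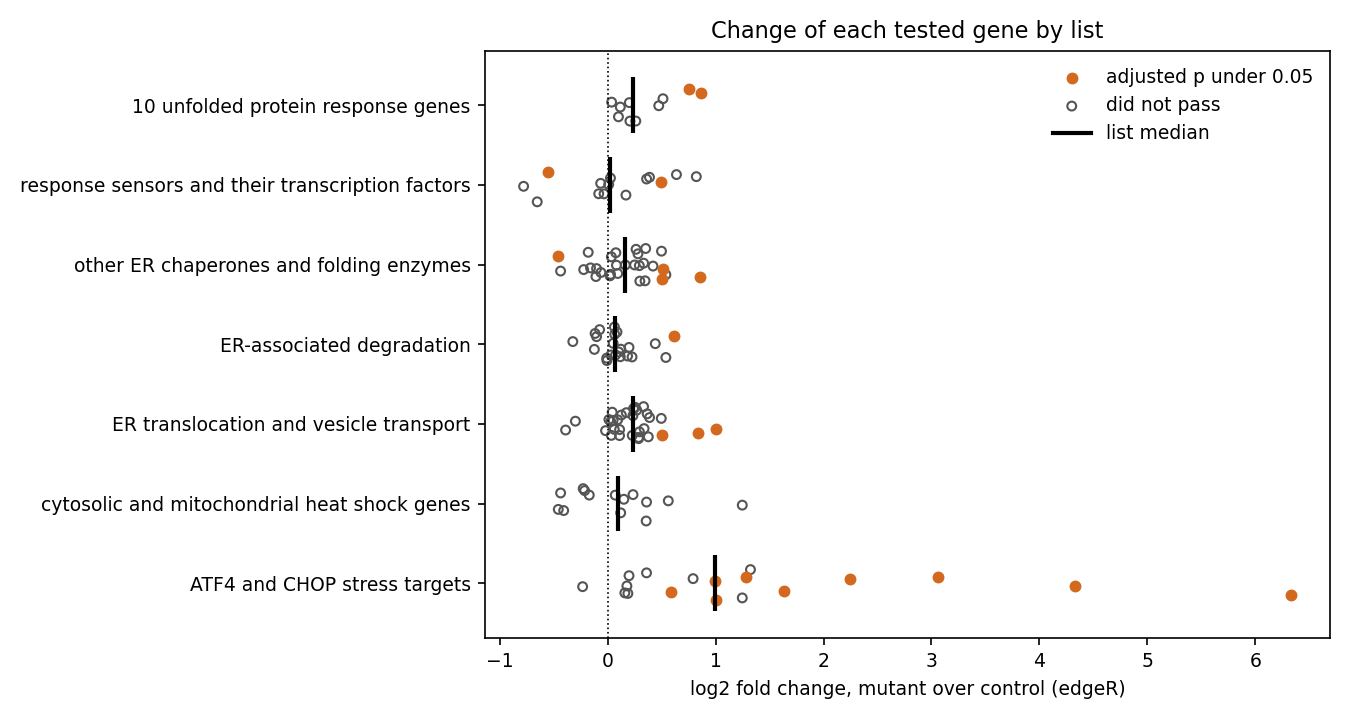
Log2 fold change of each tested gene, mutant over control, from edgeR (horizontal axis) in 7 lists, with filled points for an adjusted p under 0.05 and a bar at each list's median. The members and the 4 lists under them lie between -0.78 and 1.01, with medians of 0.02 to 0.23. The ATF4 and CHOP targets reach up to 6.34, with a median of 1.00.

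Markers of secretory cells, in which these genes are known to be high, were mixed. Of 13 goblet and Paneth markers tested, 3 rose (Retnlb, Ang4 and Lyz1; 23.1%) and 0 fell, against 6.11% and 4.17% of all genes. Both mutants lay above all controls in 5 markers and below them in 3, against 21.7% and 21.8% of all genes. Those 3 were Tff3, Fcgbp and Spdef, named after their values were seen. The symbol Muc2 of this list was not matched. The summed level of the list was 1498 to 1989 CPM in controls and 1534 and 1627 CPM in mutants, so the groups overlapped. Lyz1, the Paneth lysozyme, rose by 2.93 ± 0.27 log2 units (13.9 ± 6.13 CPM in controls against 107 ± 10.4 CPM in mutants; edgeR adjusted p = 1.51e-05). Defa24, on the same list, had 342 ± 55.6 CPM in controls and 326 ± 5.5 CPM in mutants (edgeR adjusted p = 0.814). Mmp7 did not pass either (edgeR adjusted p = 0.281). Both were named after their values were seen. Summed immune markers were 86.8 to 131 CPM in controls and 225 and 248 CPM in mutants, of which Csf1r, at 57.5 and 167 CPM in the group means, made up the most. Endothelial markers summed to 170 to 206 CPM in controls and 209 and 241 CPM in mutants, with 0 of 8 called. Neural and glial markers summed to 21.0 to 32.1 and 51.0 and 55.4 CPM, and erythroid markers to 29.9 to 37.9 and 36.0 and 36.7 CPM. Of the markers reported here, none was at 0 in every control. Whether such cells had a part in the levels of the members was not tested.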

How the data were processed

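RNA from captured cells (2.3 to 33.3 ng) was amplified, and 300 ng of cDNA per library was read as single 100 bp reads, per the labels' protocols. The same protocols give 1 h of fixation for every library. The authors deposited raw counts per RefSeq transcript and FPKM values for the same 28644 rows. Per the submitters' processing notes, build mm9 and edgeR were used; the sources used here name neither the aligner nor the counting program nor any version. Counts were tested in R 4.3.3 with edgeR 4.0.16 (quasi-likelihood F-test, default filter, TMM, no covariate), with Benjamini-Hochberg adjustment over 19353 rows (14572 genes). The SE of a log2 fold change is its size over the square root of F. Deposited FPKM were tested with limma 3.58.1 on log2(FPKM + 1) or log2(FPKM + 0.1). The fit was tested on simulated data. The 10 members and the lists were chosen with earlier results of these data known. All members were named in full; of each list, up to 4 called genes with the largest changes, or the most abundant to make 2, and all sensors. In 41 rows a spreadsheet date stood for the symbol and was replaced by transcript through RefSeq (GRCm38.p6, names only). A column headed Best was not used, and 0 columns of sample values were unmapped. No libraries of 1 group agreed within sampling noise (chi-square per gene 8.65 to 20.1). Replicate numbers are not shared between the groups. Alternatives were 2 other normalizations, 2 filters, DESeq2 1.42.0, the edgeR exact test, limma-voom, 1 row per gene, 3 FPKM fits and each library left out.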

Additional observations from a re-analysis of the deposited data

How the results depend on the processing

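Under 16 alternatives the number of members called higher was 4 with no filter on low counts, 1 in each of the 3 fits of deposited FPKM and 1 to 4 with single libraries left out. It was 3 with DESeq2, the edgeR exact test and limma-voom, each adding Hspa5, and 2 with either other normalization, the stricter filter or 1 row per gene, and 0 members were called lower under any. Creld2 was called in 15 of the 16, Dnajb9 in 11, Hspa5 in 5 and Sdf2l1 in 2, and their log2 fold changes were above 0 in all 16. The sign of 3 members near 0 turned: Pdia4 was -0.0033 (FPKM, pseudocount 1, with or without a mean of at least 1) and -0.0025 (pseudocount 0.1), and with libraries left out it was -0.020 to 0.24, Herpud1 -0.052 to 0.29 and Edem1 -0.031 to 0.10. The median of the members was 0.20 to 0.37, the highest without control 2. Genes called higher among other ER chaperones numbered 3, but 6 with no filter, 5 with DESeq2 or the exact test and 0 to 6 with libraries left out. The ER-associated degradation list had 1, but 3 with upper-quartile normalization or the exact test and 2 with no filter, with DESeq2 or without control 2 and 0 without mutant 4. The sensors had 1 higher and 1 lower, but 2 higher with upper-quartile normalization or the exact test, 2 lower with no filter, and 0 to 2 in each direction with libraries left out. The cause of these shifts was not tested. Over all genes the share called higher was 6.53% with no filter, 7.14% with DESeq2, 8.21% with the exact test and 6.39% with limma-voom. With either other normalization, the stricter filter or 1 row per gene it was 6.07% to 6.97%. In the FPKM fits it was 2.08% to 2.34%. The share of all genes called higher fell from 6.11% to 2.67% without mutant 4, whose fit assumes that the lone mutant varies like the controls. No paired analysis was possible because the groups share no replicate number. The lowest count of any member was 285, for Dnajb9 in control 1.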
